A study of Mus musculus with 2 samples.

Results

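The genes described here encode the machinery of mitosis: the kinases and cyclins that start it, the checkpoint that watches the spindle, the motors and kinetochore proteins that move chromosomes, and the proteins that end it and divide the cell. They were chosen by name, from 46 listed gene symbols, and 44 of these were found among the 27962 gene names of the array. Ndc80 and Nuf2 carried no probe under those symbols and are given separately under their former names. The rule used names and no measured ratio, although results of these data were known when the list was made.

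The samples were primary splenic B cells of C57/BL6 mice, obtained by removing CD43-positive cells, a step that enriches resting B cells. Culture medium held interleukin-4 at 10 ng/ml beside 25 µg/ml of lipopolysaccharide. Retrovirus was present for 20 h, together with 8 µg/ml of polybrene, and cells were sorted for green fluorescent protein (GFP) on day 2 after transduction. The miR-181b group carried a retroviral miR181b-GFP vector and the other group the control-GFP vector, so culture, virus, GFP and sorting were common to both. There was 1 RNA sample for each vector, and the pair was put on 2 arrays, with miR-181b RNA in Cy5 on array 1 and in Cy3 on array 2. A mouse count per RNA is not given in the labels, and the level of miR-181b itself was not analysed here.

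Resting B cells hold little mitotic RNA. Mitogens such as lipopolysaccharide push them into the cycle, where the genes of mitosis are transcribed late, in G2 and M phase, under the MuvB complex with B-Myb and FoxM1. Cyclin B with the kinase Cdk1 starts mitosis, the spindle checkpoint holds it until kinetochores are attached, and the anaphase-promoting complex with Cdc20 ends it by degrading cyclin B and securin. MicroRNAs lower the stability and translation of messenger RNAs that pair with their seed, bases 2 to 8. The sequence of miR-181b is shown with its seed in capitals, since it defines the perturbation. It is read from RefSeq (GRCm38.p6), where the Mir181b-1 and Mir181b-2 loci give the same mature RNA, from chr1:137966650-137966673 and chr2:38853845-38853868, both on the plus strand.

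mmu-miR-181b-5p: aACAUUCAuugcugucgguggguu

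A match to the whole seed reads TGAATGT in DNA letters. Among the array's own probes, 60 bases each, 2 of 79 member probes held these letters (2.53%), against 393 of 41174 probes of all genes (0.954%). A probe covers only a small stretch of a transcript, and a match is a description of letters. Both stretches are shown with the seed match in capitals because they are the only ones in the member probes.

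Cdca2: agcaggggattTGAATGTccatcctccaaa

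Ccnf: gccttcactatggTGAATGTttactgaggg

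The probe of Cdca2, a phosphatase-targeting chromosome protein, read -0.34 (array 1) and 0.02 (array 2) as log2 of miR-181b over control. That of Ccnf, cyclin F, a ubiquitin ligase subunit, gave -0.21 and 0.39. Neither gene was lower on both arrays.

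All ratios below are log2 of miR-181b over control, for the brightest probe of each gene. A value is given for each array, or as the mean of both ± the distance of either array from it, which is a technical spread. With 1 RNA per vector no test between conditions exists and no p-value is given. Differences describe these 2 RNA samples, in which fewer cells in mitosis and less mitotic RNA per cell cannot be told apart. In a given channel, 64.7% to 67.7% of spots passed the scanner's test against background. All 44 genes passed it for either RNA on each array, so none was removed by the filter on low values, and 0 were saturated. They lay between intensity percentiles 27.7 and 95.6 of the 17713 measured genes. Of the B cell markers 10 of 10 were measured, 3 of them saturated, and so were 10 of 10 T cell, 7 of 9 macrophage and monocyte and 3 of 7 erythroid markers. The medians of these lists were 0.15 (array 1, -0.36; array 2, 0.69), 0.00, -0.02 and -0.21, and their part in the results was not tested.

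The mitosis genes were mostly a little lower in the miR-181b cells. Their median was -0.15 (array 1, -0.20; array 2, -0.19), against -0.01 for all measured genes. Of the 44, 25 were lower on both arrays (56.8%), where 27.4% of all measured genes were. None was higher on both arrays, where 24.4% of all measured genes were. The other 19 had opposite signs, as had 8531 of the 17713 measured genes. On array 1 alone 41 of 44 were below 0 (93.2%, against 48.6% of all measured genes). On array 2 alone 28 were (63.6%), near the 54.5% of all measured genes. Means ran from -0.68 to 0.11.

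**Figure D1:**
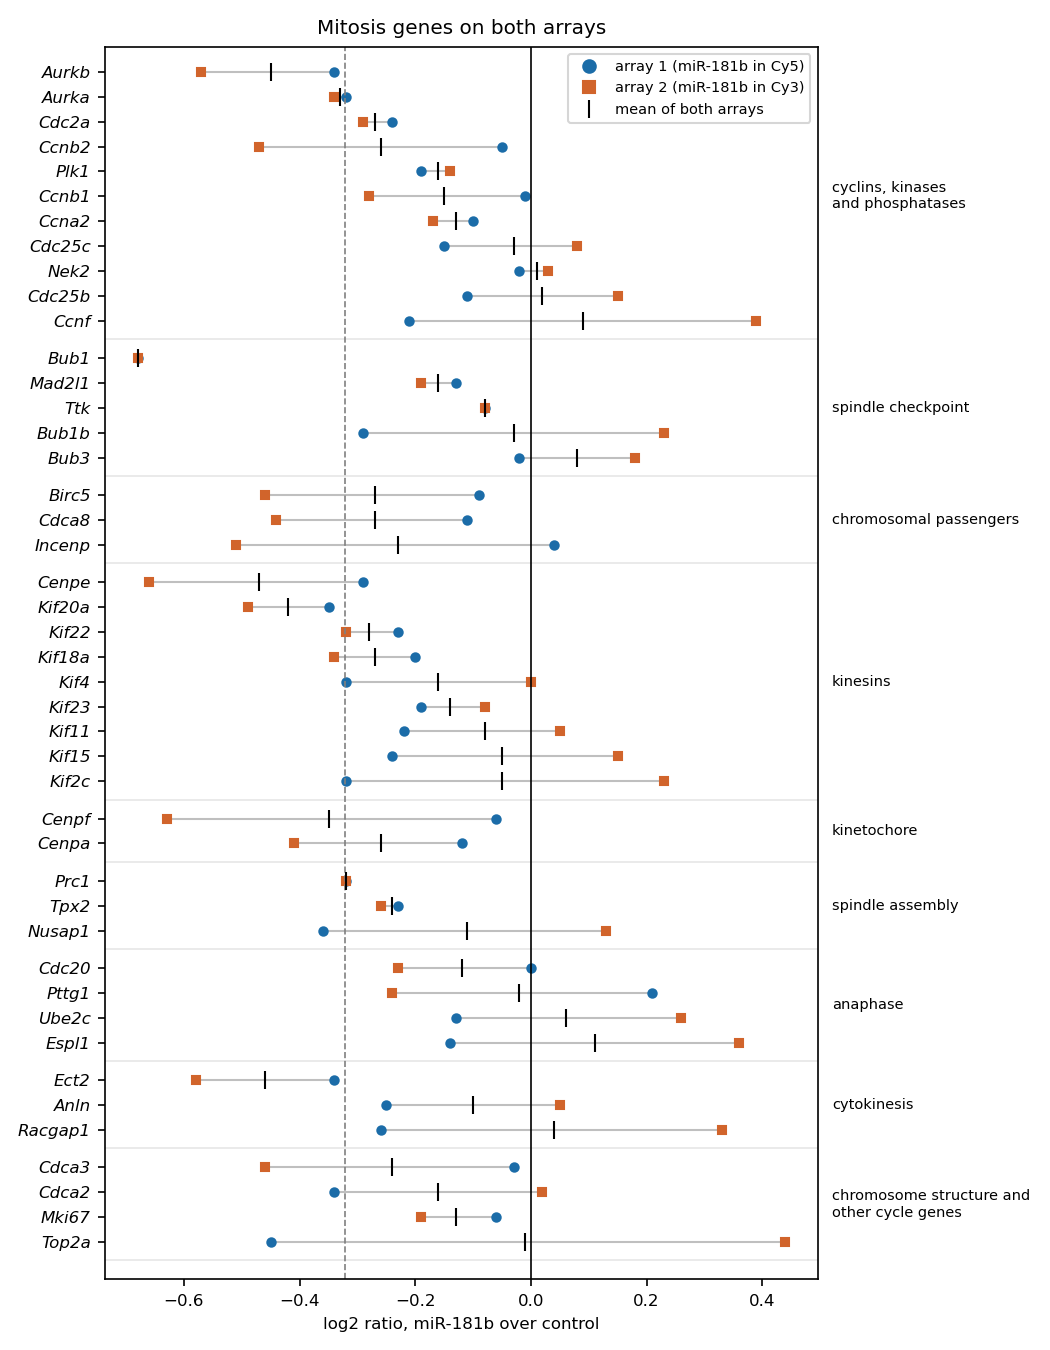
Log2 ratio of miR-181b over control (x axis) for the 44 mitosis genes, grouped by function and ordered by mean within a group. Circles are array 1, squares array 2, ticks their mean, and the dashed line marks a level 20% lower (log2 ratio -0.32); Bub1 stands lowest at -0.68 on both arrays, and the 4 anaphase genes straddle 0.

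A gene was counted as different when the arrays agreed in sign and the mean showed a level at least 20% lower or 25% higher in the miR-181b RNA, which is 0.32 on the log2 scale in either direction. By this rule 7 members were lower (15.9%), against 3.22% of all measured genes, and 0 were higher, against 3.96%. Of the 12041 measured genes within the members' intensity range, 525 were lower and 614 higher. Ordered from the lowest, the 7 members are Bub1, Cenpe, Ect2, Aurkb, Kif20a, Cenpf and Aurka. They belong to the kinases, the checkpoint, the kinesins, the kinetochore and cytokinesis, so no single step of mitosis holds them all. At 1.5-fold 1 member was lower (2.27%), against 0.508% of all measured genes. Prc1, at -0.32 on both arrays, lay just short of the 20% before rounding, and Aurka, at -0.33, just past it.

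Among the cyclins, kinases and phosphatases, 7 of 11 were lower on both arrays (63.6%, against 27.4% of all measured genes). Aurkb, the kinase of the chromosomal passenger complex, was 1.37-fold lower (-0.34 on array 1 and -0.57 on array 2). Aurka, which acts at centrosomes and in spindle assembly, was 1.26-fold lower (-0.32 and -0.34). Both aurora kinases therefore lay on the same side on both arrays, with each value below -0.3. Cdc2a, the older name of Cdk1, was at -0.24 and -0.29. Of its cyclins, Ccnb2 (-0.05 and -0.47) and Ccnb1 (-0.01 and -0.28) were less even, while Ccna2 was at -0.10 and -0.17. The other measured probes of Ccnb1 gave means between -0.06 and 0.03, so no difference was settled for it.

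Plk1, a kinase of centrosome maturation and mitotic exit, was at -0.19 and -0.14. The centrosome kinase gene Nek2 was at -0.02 and 0.03, which is no difference at this spread. Cdc25b and Cdc25c encode phosphatases that activate Cdk1. Cdc25c was at -0.15 and 0.08. The 3 probes of Cdc25b gave means of 0.02, -0.33 and 0.22, the first for the brightest, and its direction is not settled. Ccnf, with the seed match shown above, had the highest mean of this group at 0.09 ± 0.30.

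Of the spindle checkpoint genes 3 of 5 were lower on both arrays (60.0%, against 27.4% of all measured genes), and the group was the most spread. Bub1, the kinase that marks centromeric chromatin and recruits checkpoint proteins to kinetochores, was 1.60-fold lower, at -0.68 on each array, the lowest of all members. Its mean spot intensity was 1597 for miR-181b in Cy5 against 1490 for control in Cy3 on array 1. On array 2 it was 897 for miR-181b in Cy3 against 2678 for control in Cy5. These intensities are uncorrected: Bub1 was brighter in Cy5 on each array, and it was lower on both only after correction for dye. Its relative Bub1b, the BubR1 subunit of the mitotic checkpoint complex, was at -0.29 and 0.23. Bub3, the partner of both, was at -0.02 and 0.18, with other probes between -0.06 and 0.08. Mad2l1, which binds and blocks Cdc20, was at -0.13 and -0.19, but its second probe had opposite signs, at 0.11 and -0.37. The kinase gene Ttk was at -0.08 on both arrays. Bub1 is thus the only checkpoint member past 20%, and it has 1 probe on the array.

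The chromosomal passengers Birc5 (survivin), Incenp and Cdca8 (borealin) form a complex with Aurkb that corrects faulty attachments and directs cytokinesis. Birc5 was at -0.09 and -0.46 and Cdca8 at -0.11 and -0.44. Incenp was at 0.04 and -0.51. All 3 means lay between -0.27 and -0.23, short of 20%, and on array 2 all were lower than on array 1. The other probes of Cdca8 gave -0.25 and -0.13.

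The 9 kinesins all had means below 0, and 6 were lower on both arrays (66.7%, against 27.4% of all measured genes). Cenpe, the motor that carries chromosomes to the spindle equator, was 1.39-fold lower (-0.29 and -0.66), and its other probes gave -0.56 and -0.30. On array 1 alone, at -0.29, it was short of 20%. Kif20a, a motor of the central spindle needed for cytokinesis, was 1.34-fold lower (-0.35 and -0.49), and its second probe gave -0.44. Of the 4 members past 20% that had several probes, these are the ones in which every probe had a mean of -0.30 or lower. The chromosome arm motor Kif22 was at -0.23 and -0.32, and Kif18a, which damps chromosome movements, at -0.20 and -0.34. Kif23, the motor of centralspindlin, was at -0.19 and -0.08. Kif4, a chromosome and midzone motor, was at -0.32 on array 1 and within 0.01 of 0 on array 2. Kif11, the motor that separates spindle poles, Kif15, which backs it up, and Kif2c, a microtubule depolymerase, were each lower on array 1 (-0.22, -0.24 and -0.32) and higher on array 2 (0.05, 0.15 and 0.23).

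Both kinetochore members with a probe were lower on both arrays, where 27.4% of all measured genes were, and unequally so. Cenpf, a large kinetochore and microtubule protein, was 1.27-fold lower on the mean, from -0.06 on array 1 and -0.63 on array 2, and its other probe gave -0.19. It was no longer past 20% after scaling between the arrays (-0.29), with the mean of its probes (-0.27), or on array 1 alone. Cenpa, the centromeric histone H3 variant, was at -0.12 and -0.41, but its second probe had opposite signs, at -0.34 and 0.17. Ndc80 and Nuf2 are subunits of the complex that grips microtubules, and RefSeq lists Kntc2 and Cdca1 as their former symbols. Kntc2 was at -0.46 and -0.14, and Cdca1 at -0.32 and -0.13. Neither mean (-0.30 and -0.22) reached 20%, and neither is among the 44.

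In spindle assembly, Prc1, which bundles midzone microtubules, and Tpx2, the activator of aurora A, were nearly the same on both arrays: -0.32 and -0.32 for Prc1, -0.23 and -0.26 for Tpx2. Nusap1, a microtubule-stabilising protein, was at -0.36 and 0.13. The 4 anaphase genes all had opposite signs between arrays, as had 8531 of the 17713 measured genes, and their median was 0.02. Cdc20, the activator of the anaphase-promoting complex, was within 0.01 of 0 on array 1 and at -0.23 on array 2. Ube2c, its ubiquitin-conjugating enzyme, was at -0.13 and 0.26. Espl1, the protease separase, was at -0.14 and 0.36, and Pttg1, its inhibitor securin, at 0.21 and -0.24. No difference in anaphase genes was therefore shown.

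Of the cytokinesis genes, Ect2, the exchange factor that activates RhoA at the cell equator, was 1.38-fold lower (-0.34 and -0.58). A second, dimmer probe of Ect2 gave a mean of 0.01, and with the mean of its probes Ect2 was at -0.23 and no longer past 20%. Racgap1, the partner of Kif23 that docks Ect2 at the midzone, was at -0.26 and 0.33, and anillin (Anln) at -0.25 and 0.05. Among the remaining genes, Mki67, the proliferation antigen Ki-67 that coats mitotic chromosomes, was at -0.06 and -0.19, with a second probe at 0.06. Top2a, the topoisomerase that untangles sister chromatids, had the largest distance between the arrays, at -0.45 and 0.44, and its other probes had means of -0.24 and -0.12. Cdca3, a gene of mitotic entry, was at -0.03 and -0.46, with a second probe at -0.04 and -0.05. Cdca2 has been given above. Its other probes had means of -0.16 and 0.22, the latter higher on both arrays (0.11 and 0.34).

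**Figure D2:**
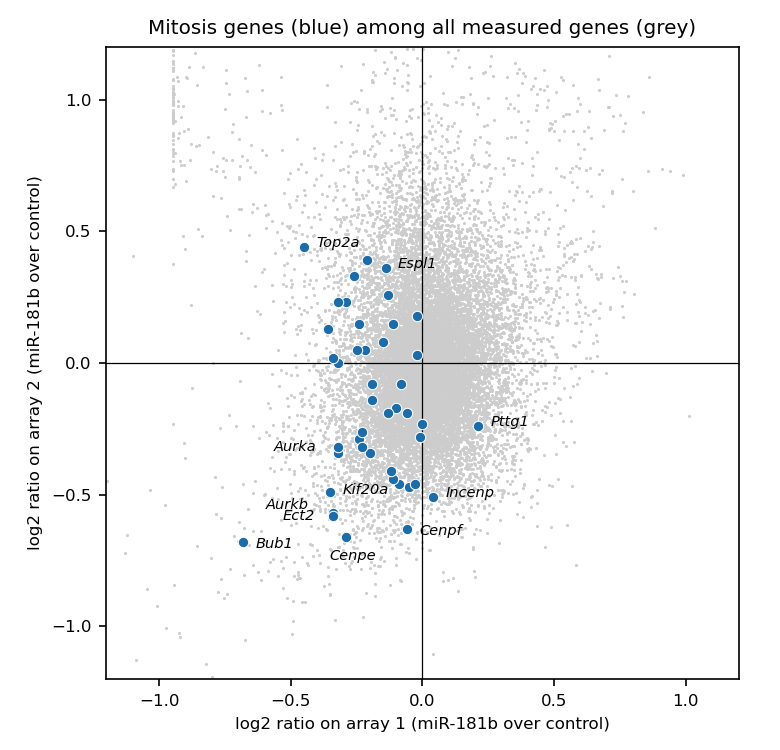
Log2 ratio on array 1 (x axis) against array 2 (y axis), miR-181b over control, for the 44 mitosis genes (blue) and all measured genes within 1.2 of 0 on both axes (grey). The 25 blue points in the lower left are lower on both arrays, none lies in the upper right, and Top2a and Bub1 mark the widest and one of the narrowest distances between arrays.

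The arrays differed more for these genes than for genes at large. The median distance of an array from the mean was 0.14 for the members and 0.09 for all measured genes. The latter include genes dimmer than any member, and the distance was not compared at like brightness. Among the members, the difference between the arrays also went with brightness. The medians of the 22 brighter members were -0.11 (array 1) and -0.29 (array 2), and those of the 22 dimmer ones -0.23 and 0.03. Measured genes at least as bright as the median member had a median of 0.00 on each array. All 22 dimmer members were below 0 on array 1, where 48.6% of all measured genes were. On array 2 only 10 of 22 were, where 54.5% of all measured genes were. Of the brighter members 15 were lower on both arrays (68.2%), against 10 of the dimmer (45.5%). The share was 27.4% of all measured genes, and 25.7% of those at least as bright as the median member. The means of the brighter and dimmer members had medians of -0.24 and -0.09. The part of brightness in the result was not tested. As a contrast between dyes, Cy5 over Cy3, 1 member was lower by at least 20% and 0 were higher by 25%, against 4.22% and 1.14% of all measured genes.

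**Figure D3:**
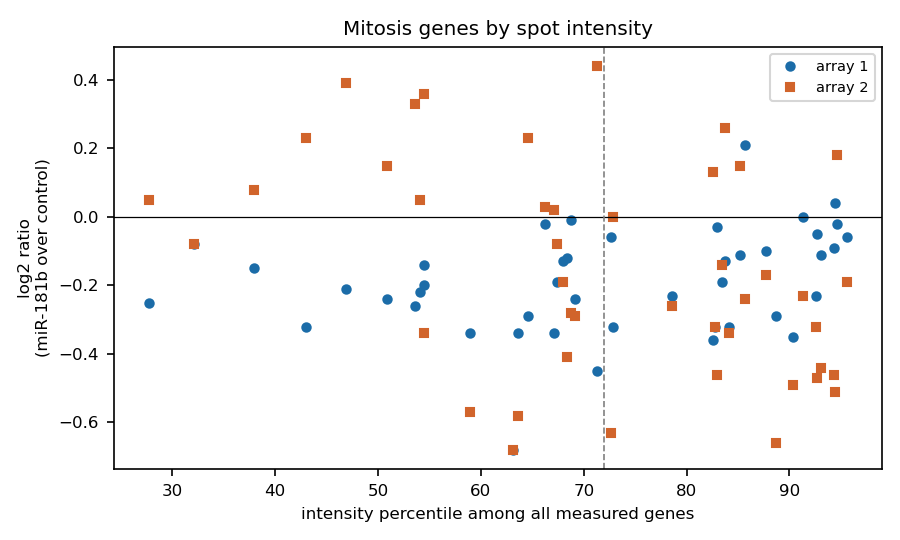
Log2 ratio of miR-181b over control (y axis) on array 1 (circles) and array 2 (squares) for each mitosis gene against its intensity percentile among all measured genes (x axis); the dashed line is the median member, at 71.9. On the bright side squares tend to lie below circles, and on the dim side above them.

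Several probes were measured for 22 members. In 14 of these every probe had a mean on the same side of 0, and in 8 they did not. Of the 79 member probes, 73 passed the background test throughout and 6 did not.

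Other mitotic genes were looked at through lists of 101 genes that exclude the members, of which 90 were on the array and measured. Their median was -0.14 (array 1, -0.10; array 2, -0.18). Both arrays put 48 of them below 0 and 12 above it. The shares, 53.3% and 13.3%, compare with 27.4% and 24.4% of all measured genes. By the rule of 20% and 25%, 4 were lower (4.44%, near the 3.22% of all measured genes) and 2 higher (2.22%, against 3.96%). Further kinesins and spindle proteins (22 measured) had 16 lower (72.7%) and 2 higher on both arrays, with a median of -0.19. In it the centriole protein gene Stil was lowest at -0.49 ± 0.31, followed by Spag5, an adaptor of spindle poles, at -0.33 ± 0.05, and the gamma-tubulin gene Tubg1 was highest at 0.17 ± 0.09. Further kinetochore and centromere genes (22 measured) had 13 lower (59.1%) and 5 higher, with a median of -0.17. Casc5, the scaffold KNL1 on which Bub1 docks, was lowest there at -0.42 ± 0.08, then Cenpp at -0.30 ± 0.06. Cenpb, a binder of centromeric satellite DNA, was highest at 0.47 ± 0.43. The other gene at least 25% higher was Mis12 at 0.33 ± 0.26, named after its value was seen.

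Condensin genes (6 measured) had a median of -0.23, but 4 of 6 had opposite signs between arrays, as had 8531 of the 17713 measured genes. Ncapd3, under its clone name B130055D15Rik, was at -0.30 ± 0.13 and Smc4 at -0.25 ± 0.31, while Ncaph, under the name Brrn1, was at 0.06 ± 0.35. Cohesin and its protectors (12 measured) had 6 lower (50.0%) and 1 higher on both arrays and a median of -0.13. Of all measured genes 27.4% were lower and 24.4% higher on both. The shugoshin genes Sgol2 and Sgol1, which guard centromeric cohesion and bind the chromatin mark made by Bub1, were lowest at -0.29 each, and the cohesin subunit gene Smc3 was highest at 0.14 ± 0.25. Further kinases and entry regulators (13 measured) had 6 lower (46.2%) and 2 higher, with a median of -0.10. The Cdk subunit gene Cks2 (-0.32 ± 0.20) and Mastl, the Greatwall kinase (-0.32 ± 0.01), were lowest, and Wee1, which inhibits Cdk1, was highest at 0.27 ± 0.21. The anaphase-promoting complex list (15 measured) was centred near 0 like the anaphase members, with a median of -0.01. It had 5 lower (33.3%, near the 27.4% of all measured genes) and 2 higher. Its lowest genes were the inhibitor Fbxo5 (Emi1), which with Stil, Spag5 and Casc5 makes up the 4 genes past 20%, at -0.32 ± 0.03, and Anapc1 at -0.26 ± 0.24, and its highest was the chain-extending enzyme gene Ube2s at 0.53 ± 0.61.

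Genes of earlier cycle phases were set beside them. DNA replication genes (39 measured) had a median of 0.00 (array 1, -0.01; array 2, -0.06), with 12 lower and 9 higher on both arrays. The share lower on both was 30.8%, near the 27.4% of all measured genes. Rpa3 was lowest at -0.29 ± 0.07, Pold1 next at -0.26 ± 0.06, and the flap endonuclease gene Fen1 highest at 0.45 ± 0.30. G1 cyclins, their kinases and E2F factors (26 measured) had a median of 0.05, with 6 lower and 6 higher on both arrays (23.1% lower). Among them the Cdk inhibitor genes Cdkn2d (-0.43 ± 0.08) and Cdkn1b (-0.24 ± 0.04) were lowest, and the retinoblastoma relative Rbl2 was highest at 0.37 ± 0.43. The difference between the mitotic and these lists was not tested, since the arrays hold 1 RNA pair.

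**Figure D4:**
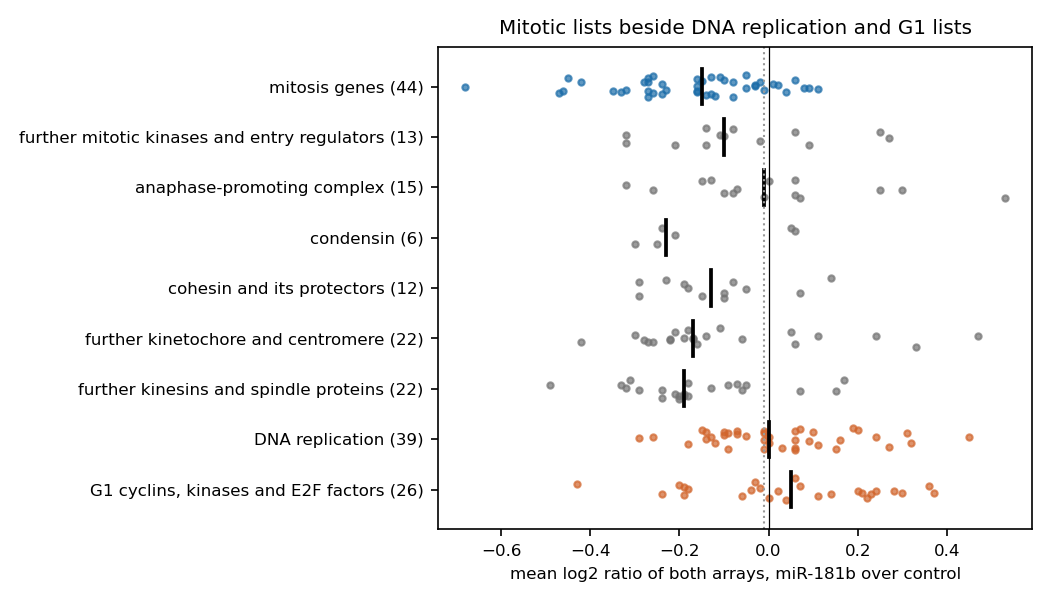
Mean log2 ratio of both arrays (x axis, miR-181b over control) of every measured gene in the mitosis genes, the 6 lists of further mitotic genes, DNA replication and G1 genes, with the number measured in parentheses. Thick bars are medians and the dotted line is the median of all measured genes; mitotic medians run from -0.23 to -0.01, and those of DNA replication and G1 genes are 0.00 and 0.05.

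How far the members lie from 0 depended on the loess step, which removes a trend of ratio with intensity. Without it, with each array centred on its median, the median of the members was -0.51 and that of all measured genes -0.20, so the members were 0.31 below genes at large instead of 0.15. Then 42 of 44 were lower on both arrays, against 55.3% of all measured genes. Replication genes were then 0.16 below genes at large and G1 genes 0.02 below. The members' median was below 0, and below that of all measured genes, in all 12 forms of processing, the main form and each array alone included. Dropping the filter on dim probes or leaving out saturated genes left every member's value unchanged, so these forms add no separate check on the members.

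**Figure D5:**
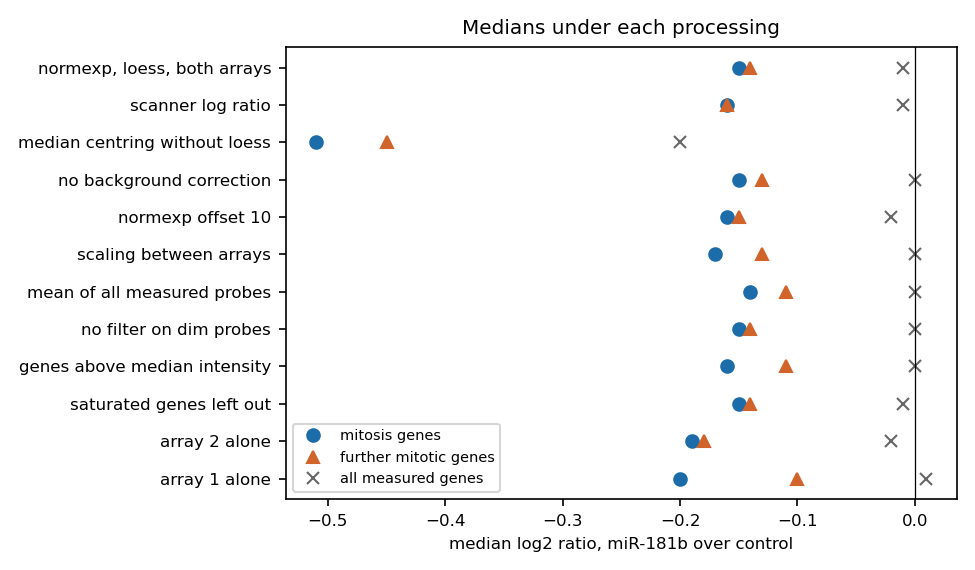
Median log2 ratio (x axis, miR-181b over control) of the mitosis genes (circles), the further mitotic genes (triangles) and all measured genes (crosses) under each processing (y axis). Circles lie left of crosses in every line, from -0.51 against -0.20 without loess to -0.14 against 0.00 with the mean of all measured probes.

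The choice by name used no promoter letters, but it took late cell-cycle genes, on which the elements below are known to act. A high share among the members is therefore no independent result. The other lists were not searched. The CHR element, TTTGAA or TTCGAA, and the CCAAT box, CCAAT, are the elements through which MuvB complexes and NF-Y act on late cell-cycle genes. They were searched on both strands in windows of 250 bases before to 50 after the RefSeq start; TTCGAA is its own reverse complement, and matches could overlap, each gene being counted once. Windows were given for 39 of the 46 listed genes. A CHR was found in 30 of 39 (76.9%), against 21.7% of 27025 genes, a CCAAT box in 29 (74.4%, against 41.1%), and both in 26 (66.7%, against 8.61%). Among the 5 genes with a window and at least 20% lower, 4 held a CHR, and among the other 32 measured members with a window, 25 did (78.1%). The latter include genes lower on both arrays, such as Prc1, and the difference in share was not tested. Cenpe, whose window held a CCAAT box but no such CHR, was among the lowest. A match is a description of letters, not of binding.

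The promoters of the 4 lower genes that held a CHR are shown from 120 bases before to 20 after the start, with CHR and CCAAT letters in capitals on either strand (ATTGG is CCAAT on the other strand). All lie on the minus strand of GRCm38.p6, as given by RefSeq: Bub1 at chr2:127831840-127831979, Ect2 at chr3:27153859-27153998, Cenpf at chr1:189688067-189688206 and Aurka at chr2:172370551-172370690.

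Bub1: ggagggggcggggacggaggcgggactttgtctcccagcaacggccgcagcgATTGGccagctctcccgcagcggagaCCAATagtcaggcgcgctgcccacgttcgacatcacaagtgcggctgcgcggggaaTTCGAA

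Ect2: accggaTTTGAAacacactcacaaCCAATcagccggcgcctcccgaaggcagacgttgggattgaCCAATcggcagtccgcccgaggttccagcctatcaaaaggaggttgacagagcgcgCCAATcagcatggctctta

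Cenpf: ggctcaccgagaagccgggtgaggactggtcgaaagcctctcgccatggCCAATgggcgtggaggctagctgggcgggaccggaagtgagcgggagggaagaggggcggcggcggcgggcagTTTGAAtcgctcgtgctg

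Aurka: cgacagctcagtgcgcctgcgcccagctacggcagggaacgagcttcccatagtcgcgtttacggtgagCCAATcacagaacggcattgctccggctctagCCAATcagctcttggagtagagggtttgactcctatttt

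Bub1 carries a CHR of the TTCGAA form from base 15 to 20 after its start, and Cenpf a TTTGAA from base 3 to 8. Ect2 holds TTTGAA at bases -114 to -109 and again at 40 to 45, outside the stretch shown. That of Aurka lies at bases 33 to 38, also outside it. CCAAT boxes precede them in Bub1, Cenpf and Aurka. Cdc20, Espl1 and Ube2c, anaphase genes whose ratios had opposite signs, hold a CHR as well, within 30 bases before their starts, while the window of Pttg1 held neither motif.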

How the data were processed

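Per the file headers, the authors' scanner files came from Agilent Feature Extraction 9.1.3.1. They give spot and local background intensities in Cy3 and Cy5, uncorrected. The scanner's log10 ratio (Cy5 over Cy3, deposited as the software made it) rests on signals after background subtraction and lowess dye correction, per the file headers, and served as an alternative. Of 45018 spots, 43379 were not controls (41174 probes). Normexp with an offset of 50, then loess within arrays, were run with limma 3.58.1 (R 4.3.3), and the sign of array 2 was turned for the dye exchange. Outlier spots (7 and 21) were left out. Spots of a probe were averaged, and the brightest probe that passed the scanner's background test for either RNA on each array stood for a gene. The steps were tested on simulated data with planted differences larger than the members' median. Dye effects in those data did not follow intensity, so the trend that loess removes was not covered.

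Members were matched by the gene name in the files (Cdc2a is Cdk1). All measured members may be named; of other lists, the 2 lowest genes and the highest. Members and lists were chosen with earlier results of these data known. Names and sequences are from RefSeq (GRCm38.p6). Alternatives changed background correction, normalisation, scaling, probe summary, filters, saturation and the arrays used. The number of arrays limits the precision.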

Additional observations from a re-analysis of the deposited data

How the results depend on the processing

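With 1 RNA pair the arrays show technical spread only, and the deposited value table was not run as an alternative because its row numbers matched no probe number of the scanner files. The median of the mitosis genes (-0.15) lay at -0.16 with the scanner's log ratio, with an offset of 10 and among genes above the median intensity, at -0.15 without background correction, at -0.17 after scaling between the arrays, at -0.14 with the mean of all probes and at -0.51 without loess. It was between -0.20 and -0.19 on each array alone. The number lower on both arrays (25) was 42 without loess, where 55.3% of all measured genes were, and that below 0 on each array alone was 28 to 41. The number at least 20% lower (7, against 3.22% of all measured genes) was 33 without loess, where 29.8% of all measured genes passed. It was 8 on array 1 alone and 15 on array 2 alone, where 4.67% and 10.2% of all passed, and 8 with the scanner's log ratio, where 6.69% did. At 1.5-fold (1, against 0.508%) it was 17 without loess (5.17% of all) and 1 to 3 on each array alone (1.58% and 1.46% of all). The number higher on both arrays was 0 in every form of processing that used both arrays, and 3 to 16 were above 0 on each array alone, where agreement of signs is not required. The median of the further mitotic genes was -0.45 and their number lower on both arrays 74 without loess. Their share at least 20% lower (4.44%) was 71.1% without loess, where 29.8% of all measured genes passed. It was 11.1% with the scanner's log ratio (6.69% of all) and 10.0% with an offset of 10 (4.61% of all). On arrays 1 and 2 alone it was 10.0% and 27.8% (4.67% and 10.2% of all). Under the other alternatives it was 2.82% to 5.56% (2.07% to 4.26% of all). The same 7 members were past 20% except for Cenpf after scaling, Cenpf and Ect2 with the mean of all probes, and Cenpe and Cenpf on array 1 alone. For single members, 35 of 44 values shifted by more than the standard deviation of the 2 arrays without loess. Under the other alternatives with both arrays, 14 of 347 did. These 347 include 3 forms that changed no member's value: no filter on dim probes (44 values), saturated genes left out (44) and genes above median intensity (39). Of the 7 genes none changed sign. The cause of these changes was not tested.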
